A study of Mus musculus with 5 samples.

Results

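A set of 10 genes that mark the epicardium was followed in RNA-seq of the atrioventricular canal (AVC) of mouse embryos, with and without deletion of Sox9 by Tie2-Cre. They were selected by name from the deposited expression table, and all 10 were found, each as 1 of its 14697 transcripts. The AVC is the stretch of the embryonic heart between atria and ventricles where cushions of mesenchyme, from which the valves develop, are laid down. Both groups were C57BL/6 embryos at embryonic day 12.5 that carried floxed Sox9 alleles. The control, genotype Sox9fl/fl:+/+ and labelled WT, had no Cre, while the conditional knockout (cKO), genotype Sox9fl/fl:Tie2-Cre/+, carried the Tie2-Cre transgene, so the groups also differ in the presence of Cre. Per the labels, dissected AVCs were pooled after genotyping, 2 libraries were made per genotype, and the tissue held mesenchyme, endothelium and myocardium. The epicardium is not among the cell types the labels name. The table gives 1 merged value per genotype, so the spread between replicates and the read depth are unknown, no test was possible, and each difference below is a size without an error.

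The epicardium is the mesothelial layer that covers the heart. It arises from the proepicardium, a source separate from the endothelium, whereas Tie2-Cre acts in endothelial cells with their descendants and in blood lineages. Like other mesothelia it is an epithelium that holds filaments of simple keratins and carries uroplakins at its surface. Some of its cells lose these epithelial traits, enter the heart wall and the atrioventricular groove and give rise to fibroblasts and mural cells. Levels are given as nFPKM, which is FPKM (fragments counted per kilobase of transcript and scaled to library depth) after a further normalization by the authors, a scale per length on which genes can be compared. Differences are given as the relative log2 ratio, the log2 ratio of cKO to WT after adding 1 nFPKM to each value, minus the median of all 13793 transcripts that reached 1 nFPKM in WT or in cKO. That median was -0.11. Rules of 1.5-fold and 2-fold refer to this relative ratio. In a bulk sample, more cells of a type and more RNA per cell cannot be told apart.

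Sox9, the targeted gene, stood at 36.7 nFPKM in WT and 14.7 nFPKM in cKO, a relative log2 ratio of -1.16. All 10 epicardial genes passed the filter on low values, and their levels in WT ran from 5.66 nFPKM for Krt8 to 65.1 nFPKM for Tcf21. Every gene of the set thus had a value in both genotypes, although the keratins are also made by other epithelia. In cKO, 9 of the 10 stood above the median of all transcripts, a position held by 50% of transcripts by definition, and Tcf21 alone stood below it. The median relative log2 ratio of the 10 was 0.65, with a range from -0.40 to 1.13, while the middle 90% of all transcripts ran from -0.45 to 0.49. At least 2-fold higher in cKO was 1 of the 10, Krt19, against 0.834% of all transcripts. At least 1.5-fold higher were 5 of the 10, namely Krt19, Lrrn4, Upk1b, Wt1 and Msln, against 3.44% of all transcripts. With a pseudocount of 5 instead of 1 the number was 4, since Msln then stood at 0.53, under the rule. None was at least 1.5-fold lower, against 2.82%.

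**Figure D1:**
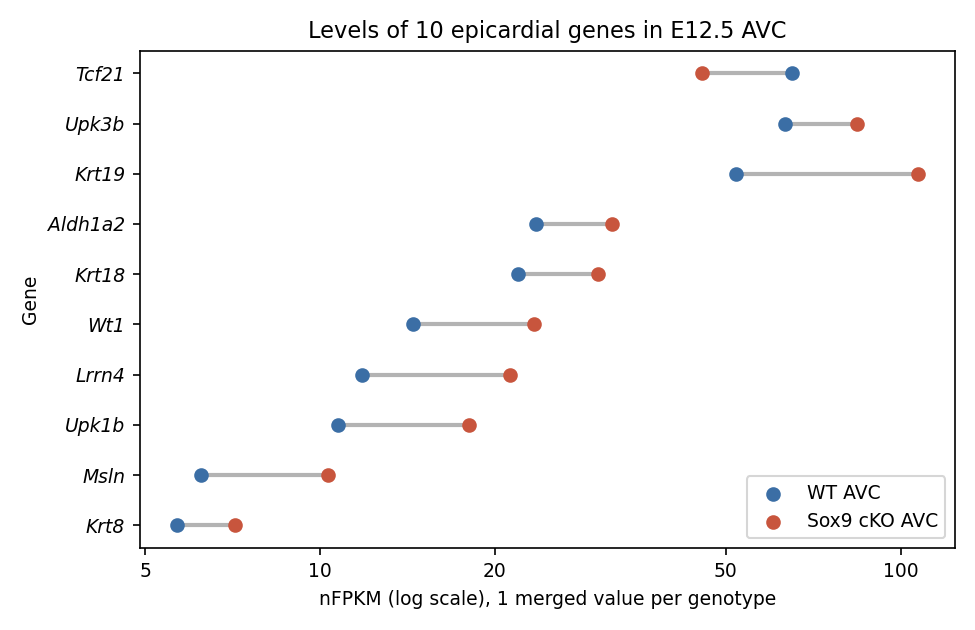
Level of each of the 10 genes as nFPKM on a log axis, with 1 merged value for WT (blue) and 1 for Sox9 cKO (red) joined by a line. The cKO point lies to the right of the WT point for 9 genes, and to the left for Tcf21, at 45.5 against 65.1 nFPKM.

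Promoter sequences from RefSeq (build GRCm38.p6) were matched by symbol for 6 of the 10 genes, Krt8, Krt18, Upk3b, Lrrn4, Aldh1a2 and Tcf21. Each covers 300 bases, from 250 before to 50 after an annotated start. Those of 3 genes are shown, namely Upk3b and Lrrn4, both of the mesothelial surface, and Tcf21, the gene that stood lower in cKO. Upk3b and Lrrn4 stood higher in cKO, as did Krt8, Krt18 and Aldh1a2, which are not shown. Capitals mark GGAATG or its reverse complement, the core letters bound by TEAD factors.
Upk3b, chr5:136038246-136038545, plus strand: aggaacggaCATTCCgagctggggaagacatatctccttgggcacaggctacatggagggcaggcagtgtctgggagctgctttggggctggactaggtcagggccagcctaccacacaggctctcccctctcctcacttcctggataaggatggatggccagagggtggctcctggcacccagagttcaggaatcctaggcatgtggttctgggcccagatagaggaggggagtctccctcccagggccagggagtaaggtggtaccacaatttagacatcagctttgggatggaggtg
Lrrn4, chr2:132880813-132881112, minus strand: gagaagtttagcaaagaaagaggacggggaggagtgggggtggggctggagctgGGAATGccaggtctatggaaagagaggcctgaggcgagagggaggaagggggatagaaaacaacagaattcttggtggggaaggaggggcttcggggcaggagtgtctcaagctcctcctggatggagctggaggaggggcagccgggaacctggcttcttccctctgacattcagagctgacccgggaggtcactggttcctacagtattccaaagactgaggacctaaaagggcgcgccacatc
Tcf21, chr10:22820094-22820393, minus strand: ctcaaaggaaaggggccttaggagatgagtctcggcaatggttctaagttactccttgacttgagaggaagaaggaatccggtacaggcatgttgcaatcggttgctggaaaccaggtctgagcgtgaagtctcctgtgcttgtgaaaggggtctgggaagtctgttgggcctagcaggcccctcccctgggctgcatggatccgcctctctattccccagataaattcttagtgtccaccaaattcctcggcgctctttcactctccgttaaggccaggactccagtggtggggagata

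The letters GGAATG, read on both strands, lay 241 bases before the start in Upk3b and 196 bases before it in Lrrn4. They were not found in the windows of the other 4 genes. These are Tcf21 and also Krt8, Krt18 and Aldh1a2, which stood higher in cKO. Of all 32851 promoters in the table, 14.7% held these letters. CANNTG, the E-box bound by basic helix-loop-helix factors such as TCF21, was present in 4 of the 6 windows and in 72.3% of all promoters. Upk3b was the 1 gene with ACAAT, the core of SOX sites, which 31.0% of all promoters held, and Aldh1a2 the 1 gene with ACGTG, the core of hypoxia response elements, held by 19.6%. GCGGGGGCG, a site of WT1 and EGR factors, was in none of the 6 windows and in 2.91% of all promoters. These matches describe letters in a short window and not binding.

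The keratins are intermediate filament proteins of epithelia, in which a type I and a type II chain always pair. Krt19 (NM_008471), a type I keratin, showed the greatest difference of the 10 genes. It stood at 52.0 nFPKM in WT and 107 nFPKM in cKO, a relative log2 ratio of 1.13 and a plain ratio of 2.06. Of the 13793 transcripts, 77 had a higher ratio. By level it stood behind Tcf21 and Upk3b in WT and ahead of all other genes of the set in cKO.

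Krt18 (NM_010664), the other type I keratin, stood at 22.0 nFPKM in WT and 30.1 nFPKM in cKO, a relative log2 ratio of 0.54. Krt8 (NM_031170), the type II partner of KRT18 and KRT19, had the lowest level of the set, at 5.66 nFPKM in WT and 7.13 nFPKM in cKO, with a relative log2 ratio of 0.39. Both keratins were higher in cKO, by less than Krt19. The mouse annotation lists a pseudogene of Krt8 (Krt8-ps), with which reads can be shared, so the value of Krt8 is uncertain.

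Within each genotype, the ratio of Krt18 to Krt8 was 3.88 in WT and 4.21 in cKO, so this ratio was similar in both. The ratio of Krt19 to Krt18 went from 2.37 in WT to 3.56 in cKO. These ratios do not depend on the total of either library. Taking Krt7, another type II keratin of simple epithelia and mesothelia (14.1 nFPKM in WT and 16.8 nFPKM in cKO), together with Krt8, the type I genes Krt18 and Krt19 stood at 3.75 times the summed level of the type II genes in WT and at 5.73 times in cKO. The keratin difference in cKO was thus mostly on the type I side, in Krt19.

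Of the 8 other keratin transcripts in the table, 6 passed the filter, with a median relative log2 ratio of 0.11. Of these, 3 stood above the median of all transcripts and 3 below, and none met the 2-fold rule. At least 1.5-fold higher was 1, Krt20, which was under 3 nFPKM in each genotype. That compares with 3.44% of all transcripts and 8.17% of those whose higher value lay between 1 and 3 nFPKM. Krt20 passed the filter through its cKO value alone, at 0.57 nFPKM in WT and 1.49 nFPKM in cKO. Krt7 and Krt80 were the other keratins with at least 3 nFPKM, at relative log2 ratios of 0.35 and 0.33.

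Uroplakins are membrane proteins of the bladder lining and of mesothelia. Upk3b (NM_175309), a marker of mesothelium, was the most abundant of the mesothelial genes in WT, at 63.1 nFPKM in WT and 83.9 nFPKM in cKO, a relative log2 ratio of 0.51. Upk1b (NM_178924), a tetraspanin that pairs with uroplakins of type III, stood at 10.7 nFPKM in WT and 18.03 nFPKM in cKO, a relative log2 ratio of 0.80. Both were higher in cKO. The ratio of Upk3b to Upk1b was 5.88 in WT and 4.66 in cKO. The other uroplakin with a value, Upk1a, stood at 1.56 and 0.59 nFPKM, a relative log2 ratio of -0.58 on a low level.

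Lrrn4 and Msln encode proteins of the mesothelial cell surface. Lrrn4 (NM_177303), a leucine-rich repeat membrane protein, stood at 11.8 nFPKM in WT and 21.2 nFPKM in cKO. Its relative log2 ratio of 0.90 was the second highest of the 10 genes, with 152 of all transcripts higher. In the GRCm38.p6 annotation Lrrn4 overlaps Crls1, a gene of cardiolipin synthesis, and the sources used here do not say whether strand was used in counting. Crls1 stood at 39.8 and 31.6 nFPKM, a relative log2 ratio of -0.22, the opposite direction to Lrrn4. Msln (NM_018857), which encodes mesothelin, stood at 6.24 nFPKM in WT and 10.3 nFPKM in cKO, a relative log2 ratio of 0.75.

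**Figure D2:**
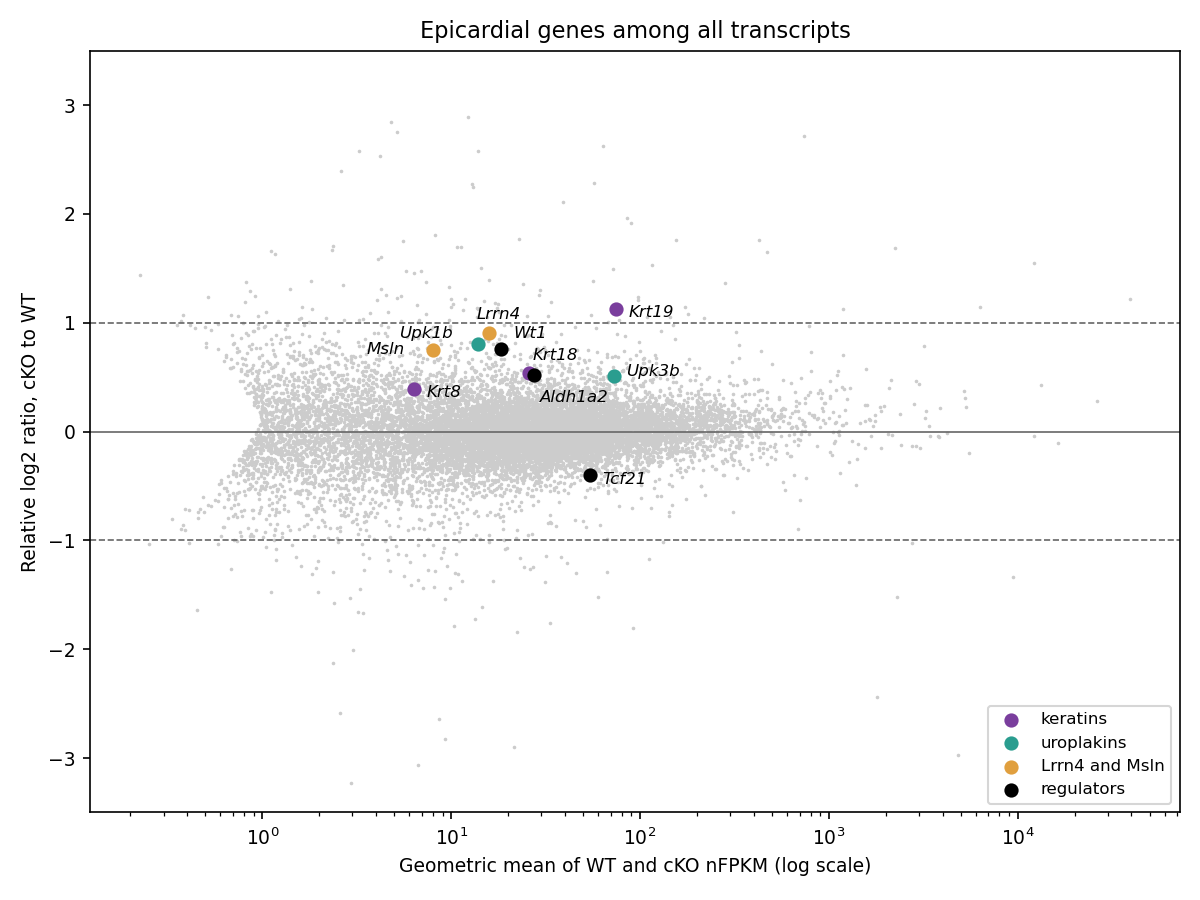
Relative log2 ratio of cKO to WT (y axis) against the geometric mean of both nFPKM values (x axis, log scale) for the 13793 transcripts that passed the filter (grey), with the 10 epicardial genes coloured by role. Dashed lines mark 2-fold. Krt19, at 1.13, is the 1 gene of the set past the upper line, and Tcf21, at -0.40, is the 1 gene below 0.

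The regulators did not move as a block. Wt1 (NM_144783), a zinc finger transcription factor of the epicardium, stood at 14.5 nFPKM in WT and 23.4 nFPKM in cKO, a relative log2 ratio of 0.76. Aldh1a2 (NM_009022), the enzyme that makes retinoic acid in the epicardium, stood at 23.6 nFPKM in WT and 31.8 nFPKM in cKO, a relative log2 ratio of 0.52. Both stood higher in cKO, at values inside the range of the keratin, uroplakin and surface genes.

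Tcf21 (NM_011545), a basic helix-loop-helix factor of the epicardium and of the cardiac fibroblasts derived from it, stood at 65.1 nFPKM in WT and 45.5 nFPKM in cKO. Its relative log2 ratio was -0.40 and its plain ratio of cKO to WT 0.70. By level it stood ahead of the other genes of the set in WT, and behind Krt19 and Upk3b in cKO. The ratio of Tcf21 to Wt1 was 4.50 in WT and 1.95 in cKO. In the GRCm38.p6 annotation Tcf21 overlaps a long non-coding gene, Gm10824, which is not analysed here.

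The 7 keratin, uroplakin and surface genes had a median relative log2 ratio of 0.75, with all 7 above the median of all transcripts, and the 3 regulators a median of 0.52, with 2 above. The difference between these medians was 0.23. It was 0.020 when Lrrn4 and Msln were left out, and 0.57 when Aldh1a2, which is an enzyme, was left out of the regulators. The difference between the classes thus depended on which genes were counted in each, and Wt1 and Aldh1a2 lay within the range of the 7, from 0.39 to 1.13, while Tcf21 lay outside it. By sums, the 7 genes stood at 172 nFPKM in WT and 278 nFPKM in cKO, while the 3 regulators stood at 103 and 101 nFPKM. Single genes weigh heavily in these sums. Of the 7, Krt19 had the greatest difference of cKO minus WT, 54.9 nFPKM. Among the regulators this difference was -19.6 nFPKM for Tcf21, 8.88 nFPKM for Wt1 and 8.20 nFPKM for Aldh1a2. Their nearly equal sums thus combine opposite directions.

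Relative to Wt1 within the same genotype, the ratio of Upk1b was 0.74 in WT and 0.77 in cKO. That of Msln was 0.43 and 0.44, that of Lrrn4 0.81 and 0.91, and that of Krt19 3.60 and 4.58. In the other direction, Upk3b over Wt1 went from 4.36 to 3.59 and Krt18 over Wt1 from 1.52 to 1.29. Aldh1a2 over Wt1 went from 1.63 to 1.36 and Krt8 over Wt1 from 0.39 to 0.31. As a share of the summed nFPKM of the 10 genes, Krt19 made up 18.9% in WT and 28.3% in cKO, Tcf21 made up 23.7% and 12.02%, and Upk3b 23.0% and 22.2%.

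**Figure D3:**
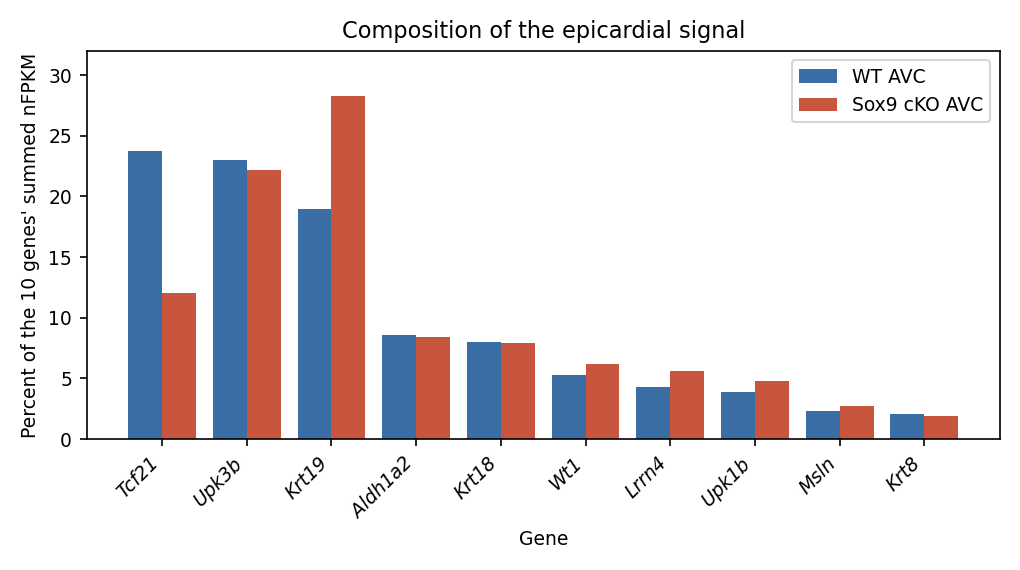
Share of each gene in the summed nFPKM of the 10 epicardial genes (y axis, percent) in WT (blue) and Sox9 cKO (red), with 1 merged value per bar. Krt19 goes from 18.9% to 28.3% and Tcf21 from 23.7% to 12.02%, while the other shares differ less.

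Spread among transcripts depends on level, so each gene was also set beside transcripts of like level, by the higher of its values. Between 10 and 30 nFPKM, the middle 90% of 3926 transcripts ran from -0.45 to 0.45, and Wt1, Upk1b, Lrrn4 and Msln lay above it. Between 30 and 100 nFPKM, the middle 90% of 4376 transcripts ran from -0.33 to 0.38, with Aldh1a2, Krt18 and Upk3b above it and Tcf21 below it. Above 100 nFPKM, 1716 transcripts had a middle 90% from -0.28 to 0.48, with Krt19 above it. Krt8 was the 1 gene inside its range, which ran from -0.63 to 0.60 between 3 and 10 nFPKM. This spread is across genes within 1 comparison and is not replicate error.

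Epicardial genes outside the set gave a different picture. Of 30 further genes of epicardium and mesothelium, 27 had a value and 25 passed the filter. Their median relative log2 ratio was 0.15, with 16 above the median of all transcripts and 9 below, and none met the 1.5-fold rule in either direction. Podxl, a sialomucin of epithelial and endothelial surfaces, stood at 60.8 and 81.1 nFPKM in WT and cKO (0.52), and Bnc1, a zinc finger factor of mesothelium, at 7.14 and 9.79 nFPKM (0.51). Nkain4 stood at 38.7 and 25.2 nFPKM (-0.49) and the complement gene C3 at 5.64 and 3.45 nFPKM (-0.47). The other transcription factors of the list are named here with their values known. Below the median stood Tbx18 at 57.7 and 47.6 nFPKM (-0.17), Gata5 at 46.0 and 38.5 nFPKM (-0.15) and Gata6 at 142 and 109 nFPKM (-0.28). Hoxa5 stood just above it, at 1.10 and 1.12 nFPKM (0.12), levels close to the filter. The sums of the 27 genes were 666 nFPKM in WT and 659 nFPKM in cKO. The higher values of the 10 genes thus did not extend to all genes of this list. Not all of its genes are made in the epicardium alone, as with Podxl. Genes of high level, such as Gata6, weigh most in its sums.

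Genes of epithelial junctions and desmosomes, which anchor keratin filaments, had a median of 0.20 over 13 genes that passed the filter. Of these, 11 stood above the median of all transcripts, and none met the 2-fold rule. At least 1.5-fold higher were 2, Cldn3 and Ocln, both under 3 nFPKM in each genotype. That compares with 3.44% of all transcripts and 8.17% of those whose higher value lay between 1 and 3 nFPKM. Cldn3 passed the filter through its cKO value alone, at 0.70 nFPKM in WT and 1.78 nFPKM in cKO. Dsg2, a desmosomal cadherin, stood at 32.2 nFPKM in WT and 39.3 nFPKM in cKO (0.38), and Pkp2, a desmosomal plaque protein, at 136 and 159 nFPKM (0.33). Both are also made by cardiomyocytes.

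Retinoic acid genes around Aldh1a2 were divided. Retinoic acid binds nuclear receptors (RAR and RXR), is held in the cell by CRABP proteins and is broken down by CYP26 enzymes. Of 16 genes that passed the filter, 10 stood above the median of all transcripts and 6 below, with a median of 0.11. At least 2-fold lower in cKO were 3 of the 16, against 0.674% of all transcripts, and none was at least 2-fold higher. Crabp1, a retinoic acid binding protein, stood at 27.6 nFPKM in WT and 7.69 nFPKM in cKO (-1.61), and the receptor gene Rarg at 14.3 and 5.80 nFPKM (-1.07). Cyp26a1 stood at 1.30 and 0.05 nFPKM (-1.03), both low values, for which the added 1 nFPKM weighs heavily. It passed the filter through its WT value alone, so its place in the count of 3 rests on the group where it is high. In the other direction, Cyp26b1, which breaks down retinoic acid, stood at 8.45 and 13.6 nFPKM (0.73) and the receptor gene Rara at 39.4 and 48.4 nFPKM (0.40). The relative log2 ratio of Aldh1a2, the enzyme of synthesis, at 0.52, lay between those of Rara and Cyp26b1.

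**Figure D4:**
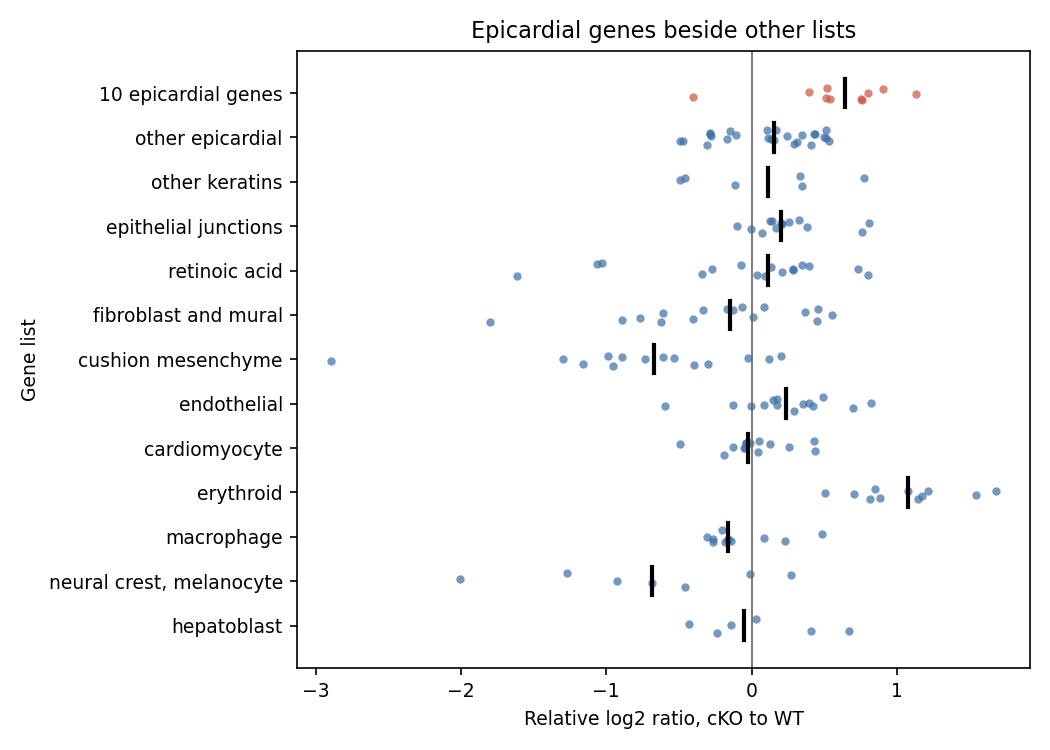
Relative log2 ratio (x axis) of each gene that passed the filter, by gene list (y axis). Points are genes, vertical jitter carries no meaning, and black bars are list medians. The 10 epicardial genes have a median of 0.65, other epicardial genes 0.15, cushion mesenchyme -0.67 and erythroid genes 1.08.

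Markers of other cell types also differed between the 2 pools. The 14 cushion mesenchyme markers, which include Sox9, the targeted gene, had a median of -0.67, with 12 below the median of all transcripts. The sum of the 14 went from 2526 to 1634 nFPKM. Papss2, an enzyme of sulfate activation (-2.90), and Twist1 (-1.30) were at least 2-fold lower beside Sox9, against 0.674% of all transcripts. Msx2 (0.20) and Nfatc1 (0.12) stood highest. The 11 erythroid markers with a value all stood above the median, at a list median of 1.08, and their sum went from 40273 to 91560 nFPKM. At least 2-fold higher were 6 of the 11, against 0.834% of all transcripts, among them Alas2 of heme synthesis (1.08) and the embryonic globin Hbb-bh1 (1.69). Klf1 (0.51) and Gata1 (0.71) stood lowest. With the globins left out and the rest rescaled to a common total, the median of the 10 epicardial genes was 0.65. Such a rescaling is almost wholly removed when the median is taken off. The value thus cannot show whether the erythroid share affects the 10 genes.

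The 14 endothelial markers had a median of 0.24, with 11 above the median of all transcripts and sums of 1357 and 1527 nFPKM, from Emcn at 0.82 and Plvap at 0.70 to Egfl7 at -0.13 and Cldn5 at -0.59. The 14 cardiomyocyte markers had a median of -0.03 and sums of 52932 and 53046 nFPKM, from Nppa (0.44) and Actc1 (0.43) to Tnni3 (-0.19) and Myh6 (-0.49). Fibroblast and mural genes, which the epicardium-derived cells come to express, had a median of -0.15 over 16 genes, with 10 below the median of all transcripts. Tcf21 and Tbx18 are counted here too, and Postn and Pdgfra (-0.61) are also in the cushion mesenchyme list. Acta2 (0.55) and Tagln (0.46), of smooth muscle, stood highest, and the matrix genes Lum (-1.80) and Postn (-0.89) lowest. The 11 macrophage markers had a median of -0.16, with 8 below the median of all transcripts, from Cd68 (0.48) and C1qa (0.23) to Tyrobp (-0.26) and Lyz2 (-0.27). The 7 neural crest, glial and melanocyte markers with a value had a median of -0.68 (-0.25 with a pseudocount of 5). Dct (-2.01) and Pmel (-1.27) of the melanocyte were at least 2-fold lower, against 0.674% of all transcripts, and Mitf (0.27) stood highest.

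Markers of tissues near the heart that hold mesothelium or simple keratins were mostly low or without a value. Of 10 hepatoblast markers, 6 had a value, with a median of -0.05 and sums of 58.6 nFPKM in WT and 52.9 nFPKM in cKO. Afp stood at 3.40 and 5.52 nFPKM (0.67), Dlk1 at 15.0 and 18.8 nFPKM (0.41) and Apoa2 at 4.70 and 4.42 nFPKM (0.03), while Trf, which other cells also make, stood at 31.8 and 21.6 nFPKM (-0.43). Of 10 markers of lung and foregut epithelium, Epcam was the 1 with a value, at 0.97 and 0.54 nFPKM, under the filter, and the others are not analysed here. The part of these other cell types in the differences of the 10 genes was not tested. How much epicardium each pool held after dissection, and how much each epicardial cell expressed, cannot be told apart in these values.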

How the data were processed

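RNA-seq of WT and Sox9 cKO AVC was used, with 1 merged value per genotype and groups taken from the sample titles. Per the file headers, the authors deposited normalized FPKM values (nFPKM), merged over duplicate libraries, and a log2 fold change between the genotypes. Tools named in the submitters' processing notes are TopHat2, Cufflinks and edgeR, with the build mm9 and no versions or roles. How nFPKM was normalized and whether strand was used are not given in the sources read. Read depth is unknown, so no interval or test was given. Log2 ratios used a pseudocount of 1, so that ratios of low genes are understated. A filter of at least 1 nFPKM in either genotype removed 904 transcripts. From the log2 ratios the median of the remaining transcripts was taken off, and rules of 2-fold and 1.5-fold were applied to the result. Of each gene list, genes past 2-fold and the 2 highest and 2 lowest with at least 3 nFPKM were named. Some genes that this rule names are not reported here. Of genes with several rows, the row with the highest mean was used. Members and lists were chosen with earlier results of these data known. SOX9 peak lists (mm9) were not used here, because the annotation used was GRCm38.p6. The steps were tested on simulated data, with Python 3.11.15, numpy 2.4.6, pandas 2.3.3 and matplotlib 3.10.9.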

Additional observations from a re-analysis of the deposited data

How the results depend on the processing

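The direction of all 10 epicardial genes was the same with pseudocounts of 0.1 and 5, without centring and in the authors' deposited log2 fold change. It was also the same without the filter, with at least 3 nFPKM, without globins and with rows of a symbol summed. These last settings could hardly change it. Each of the 10 genes has 1 row and passes either filter, and the rescaling without globins is mostly removed with the median. Krt19 met the 2-fold rule under every setting named here, at 1.03 to 1.15. Tcf21 ran from -0.51 to -0.39. With a pseudocount of 5, the median of the 10 genes was 0.50, that of the keratin, uroplakin and surface genes 0.53 and the difference from the regulators 0.084, since a larger pseudocount shrinks the ratio of low genes. Under that pseudocount 4 genes instead of 5 were at least 1.5-fold higher, Msln being lost, and the neural crest, glial and melanocyte median was -0.25 instead of -0.68. Without centring, these medians were 0.54 and 0.65, and that of the regulators 0.42. The difference was 0.57 without Aldh1a2 and 0.020 for keratins and uroplakins alone. The hepatoblast median, -0.05, was 0.015 with a pseudocount of 5 and 0.22 with at least 3 nFPKM. That of other keratins, 0.11, was -0.029 without the filter. With at least 3 nFPKM the hepatoblast list loses Apoa1 and Ttr, and without the filter the other keratins gain Krt14 and Krt79. With a pseudocount of 5 the hepatoblast genes counted are the same, and the ratios of low genes are smaller. No paired analysis was possible because each genotype has 1 merged value. With no replicates and unknown depth, differences of this size cannot be set against an error.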
